A study of Mus musculus with 4 samples.

Results

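Zip and ZnT proteins carry zinc, iron and manganese across membranes, and metallothioneins hold zinc and copper inside the cell. The RNA of 10 such genes was followed in sorted regulatory T (Treg) cells: the Zip importers *Slc39a14*, *Slc39a8*, *Slc39a6*, *Slc39a10*, *Slc39a1* and *Slc39a3*, the ZnT transporters *Slc30a1* and *Slc30a5*, and the metallothioneins *Mt1* and *Mt2*. They were chosen by name as a possible route for metal that does not enter with transferrin, out of 47729 genes in the table, and all 10 were found in it. Transferrin receptor 1 (TfR1, made from *Tfrc*) brings iron into cells bound to transferrin. Iron that is not bound to transferrin can enter through other carriers, of which ZIP14, ZIP8 and DMT1 are the best known.

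The libraries came from splenic Treg cells of adult female C57BL/6 mice, 2 labelled TfR1-deficient (genotype Tfrc fl/fl with Foxp3 YFP-Cre/+) and 2 labelled WT (Tfrc +/+ with Foxp3 YFP-Cre/+), so both groups carried 1 Cre allele at *Foxp3*. Cre made from the *Foxp3* locus deletes the floxed gene in Treg cells only, and since *Foxp3* is X-linked, only a part of the Treg cells of such a female make Cre. These were taken by sorting CD4+CD25+YFP+ cells. The labels name the spleen, and the supplement of the study also names lymph nodes. How many mice went into each library was not given in the sources used here, and the p-values measure the spread between these 4 libraries. The tables hold 10841939 to 17278448 counted reads per library.

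*Tfrc* itself was at 50.7 and 54.0 CPM (library-size-adjusted counts, with TMM factors) in WT and at 56.0 and 48.2 CPM in those labelled TfR1-deficient. Its whole-gene count did not separate the groups, so each direction below rests on the labels. The 8 T-cell and Treg markers summed to 5016 and 4751 CPM in WT and to 4072 and 3634 CPM in those labelled TfR1-deficient. Both of the latter sums lay below both WT sums, and each marker had a log2 fold change below 0. *Foxp3* was at 194 and 130 CPM in WT and at 121 and 114 CPM in those labelled TfR1-deficient (-0.46, standard error 0.22, adjusted p = 0.911 in edgeR). A list of 20 macrophage markers summed to 1016 CPM in WT replicate 1 and 3135 in TfR1-deficient replicate 2, against 89.9 in WT replicate 2 and 61.9 in TfR1-deficient replicate 1. All 20 of these markers, and all 10 of a list of proliferation genes, were higher in the first pair of libraries than in both others, and of the 20 only *Siglec1* was at 0 in both others. A list of 7 B-cell markers summed to 1294 and 1575 CPM in WT and to 1274 and 1106 CPM in those labelled TfR1-deficient. The sum of 4 erythroid markers was 16.8 and 113 CPM in WT and 42.8 and 276 CPM in those labelled TfR1-deficient. Each tested member is therefore also given within the pair with low macrophage markers (WT replicate 2 and TfR1-deficient replicate 1) and within the pair with high ones, a pairing chosen after the values were seen. The labels name no batch.

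Zinc has its own sensor in mouse cells. The transcription factor MTF-1, made from *Mtf1*, binds zinc and then attaches to short metal response elements, from which it turns on *Mt1*, *Mt2* and *Slc30a1* and turns down *Slc39a10*. Metallothioneins then take up the metal and ZnT1 exports it, so that these genes are widely used as a readout of free zinc. Iron is not sensed by MTF-1, yet several of the importers carry both metals.

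The core of the metal response element was searched in the promoters of the members, because MTF-1 attaches to such elements. Promoters were RefSeq sequences on GRCm38.p6, from 250 bases before to 50 bases after a start, and were found for 8 of the 10 genes (10 promoters), but not for *Slc39a14* and *Slc39a6*. The motifs were TGCACNC and TGCGCNC, on both strands. *Mt2* held 4 matches, *Mt1* 3, *Slc30a1* 2, and *Slc30a5*, *Slc39a3* and 1 of the 2 promoters of *Slc39a8* held 1 each, whereas *Slc39a1* and both promoters of *Slc39a10* held none. For the *Slc39a8* promoter with the match, the bases after the start were not found in a GENCODE vM1 protein-coding transcript of the gene. The same held for 1 of the 2 promoters of *Slc39a10*. Of all 32851 promoters of this length, 25.7% held at least 1 match, 7.11% at least 2, 1.97% at least 3 and 0.517% at least 4. The 8 matches that lie before the start of the promoter sequence used are shown with 10 bases on each side. They run 5′ to 3′ along the strand of the motif, with the 7 motif bases in capitals. These promoter starts are not always the ends of the gene spans given below. The motif bases shown for *Mt1*, *Slc30a1*, *Slc30a5* and *Slc39a8* lie inside those spans. A match describes the letters and does not show that a factor binds there, and a promoter without a match does not show that none can.
*Mt1*, 17 bases before the start, sense, chr8:94179056-94179082: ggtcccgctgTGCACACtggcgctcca
*Mt2*, 44 bases before the start, antisense, chr8:94172558-94172584: ggacagagccTGCACACgccctccccc
*Mt2*, 122 bases before the start, sense, chr8:94172480-94172506: gcagacccttTGCGCTCagctcctttg
*Mt2*, 217 bases before the start, sense, chr8:94172385-94172411: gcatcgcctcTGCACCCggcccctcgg
*Slc30a1*, 37 bases before the start, antisense, chr1:191906728-191906754: aactttgcttTGCACTCggaacccccg
*Slc30a5*, 42 bases before the start, antisense, chr13:100833459-100833485: atcctgcgccTGCGCGCtggtggacac
*Slc39a3*, 138 bases before the start, sense, chr10:81037443-81037469: atttggtagcTGCACTCatgtttagaa
*Slc39a8*, 13 bases before the start, antisense, chr3:135825628-135825654: gatcaggcccTGCACCCtttagagata

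All 8 transporters and *Mt1* were counted in every library, while *Mt2* was close to absent. To set the genes beside each other, CPM were divided by the merged length of all annotated exons of the gene. This length can exceed that of any single transcript. On this scale of CPM per kilobase, *Slc39a6* was the highest with a mean of 10.8, followed by *Slc39a3* (10.5), *Slc39a10* (8.72), *Slc39a1* (6.74) and *Slc30a5* (4.43). *Mt1* had a mean of 2.10, and *Slc39a14* (0.947), *Slc39a8* (0.527), *Slc30a1* (0.463) and *Mt2* (0.0259) came last. The ranges over the 4 libraries overlapped for each pair of neighbours in this order except *Slc30a1* and *Mt2*, so the order within it is not settled, but the lowest level of the first 5 genes (3.22 for *Slc30a5*) lay above the highest level of *Slc39a14* (1.06). The importers best known for iron without transferrin, *Slc39a14* and *Slc39a8*, were thus the lowest of the 6 Zip genes per kilobase. In CPM not divided by length, *Slc39a14* (7.93 to 11.2) overlapped *Slc39a1* (9.33 to 22.7), while *Slc39a8* (2.81 to 5.90) stayed the lowest.

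No member passed the test between the genotypes. Of the 10 genes, 9 had enough counts to be tested and *Mt2* did not, and none of the 9 passed only through the group in which it was higher. In edgeR's quasi-likelihood test over 12536 genes, 0 of the 9 were called in either direction at an adjusted p under 0.05 and a log2 fold change of 0.5 or more in size, as were 0% of all genes in each direction. With the p-value not adjusted it was also 0 of 9, where 4.08% of all genes tested were called (1.60% higher and 2.48% lower). DESeq2, which the study used, called 0 members at either p-value, where 0.979% of all genes were called higher and 1.40% lower at the unadjusted p-value, and 0.0510% higher and 0.238% lower at the adjusted one. The median log2 fold change of the 9 was 0.44, against 0.01 over all genes tested, and 6 of the 9 lay above 0, as did 51.1% of all genes. In 3 of them, *Slc39a3*, *Slc30a1* and *Slc30a5*, both libraries labelled TfR1-deficient lay above both WT libraries, and in 0 they lay below both. Among all genes tested, 16.0% were above and 18.9% below in this sense.

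**Figure D1:**
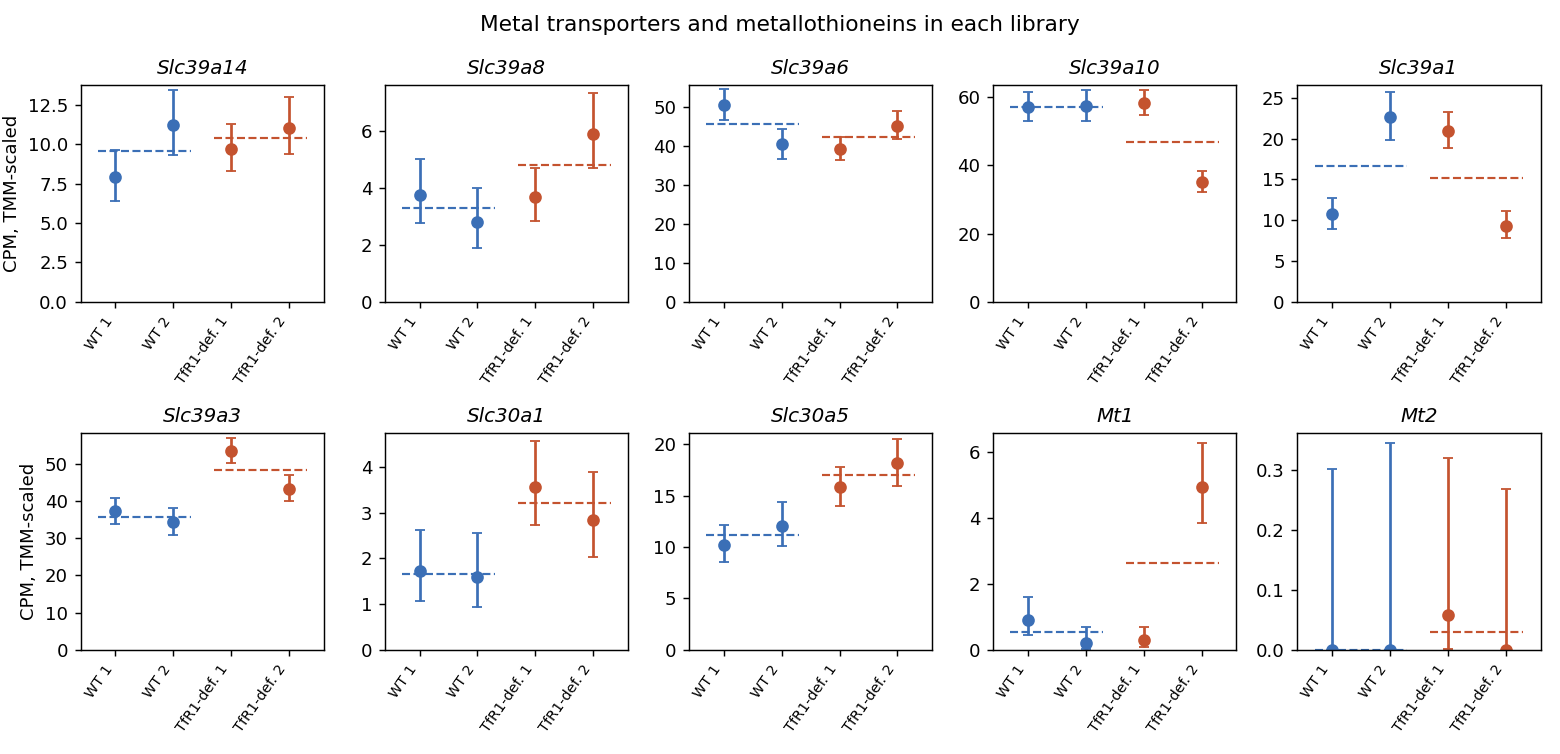
CPM (TMM-scaled, linear axes from 0) of the 10 genes in each of the 4 libraries, with 95% Poisson intervals of the count as bars and group means as dashed lines (WT blue, TfR1-deficient red). Only *Slc39a3*, *Slc30a1* and *Slc30a5* have both red points above both blue ones, and *Mt1* stands out in TfR1-deficient replicate 2 alone.

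*Slc30a1* (chromosome 1, 191906697 to 191913248) encodes ZnT1, the zinc exporter of the plasma membrane. It was counted 21 and 17 times in the WT libraries and 62 and 39 times in those labelled TfR1-deficient, which makes 1.72 and 1.59 CPM against 3.57 and 2.84 CPM. Both libraries labelled TfR1-deficient were higher than both WT libraries, with means of 1.65 ± 0.0885 and 3.20 ± 0.513 CPM (SD, n = 2 each). The log2 fold change was 0.95 (standard error 0.43), with an adjusted p = 0.911 in edgeR. The counts are few: the exact 95% Poisson intervals reach up to 2.62 CPM in WT replicate 1 and down to 2.02 CPM in TfR1-deficient replicate 2 and thus overlap. The log2 ratio of the libraries (with 0.25 CPM added) was 1.05 within the pair with low macrophage markers and 0.65 within the pair with high ones. With any 1 library left out the log2 fold change stayed between 0.81 and 1.10. An exon of 1700034H15Rik, on the opposite strand, overlaps 468 bases of its exons, and that gene had at most 1 count in any library.

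*Slc30a5* (chromosome 13, 100802645 to 100833480) encodes ZnT5, which together with ZnT6 loads zinc into the secretory pathway, where zinc enzymes are assembled. It was at 10.2 and 12.1 CPM in WT and at 15.8 and 18.1 CPM in those labelled TfR1-deficient. The groups did not overlap, with means of 11.1 ± 1.31 and 17.0 ± 1.64 CPM (SD, n = 2 each), and on the log2 scale the difference was 0.61 (standard error 0.26, adjusted p = 0.911 in edgeR). The ratio was 0.38 on the log2 scale within the low-marker pair and 0.81 within the high-marker pair. *Slc30a6*, which encodes its partner ZnT6, was at 32.4 and 23.0 CPM in WT and 25.9 and 25.7 CPM in those labelled TfR1-deficient, and the log2 fold change was -0.10 (standard error 0.24), and its groups overlapped.

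*Slc39a3* (chromosome 10, 81028540 to 81037338) and *Slc39a1* (chromosome 3, 90248190 to 90253613) encode ZIP3 and ZIP1, related zinc importers of the plasma membrane. *Slc39a3* was at 37.3 and 34.4 CPM in WT and at 53.6 and 43.4 CPM in those labelled TfR1-deficient. Its groups did not overlap (means 35.8 ± 2.06 and 48.5 ± 7.26 CPM, SD, n = 2 each), and the difference came to 0.44 on the log2 scale (standard error 0.18, adjusted p = 0.911 in edgeR). It had 367 to 932 counts per library, and the exact 95% Poisson intervals of WT replicate 1 (up to 40.9 CPM) and TfR1-deficient replicate 2 (down to 39.9 CPM) overlapped. Within the low-marker pair the log2 ratio was 0.64, and within the high-marker pair 0.22.

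*Slc39a1* followed another split. It was at 10.7 and 22.7 CPM in WT and at 21.0 and 9.33 CPM in those labelled TfR1-deficient. WT replicate 1 and TfR1-deficient replicate 2, the libraries with high macrophage markers, were both low, and within each pair the genotypes were close (log2 ratios -0.11 and -0.19). The log2 fold change over all 4 libraries was -0.13 (standard error 0.54), the widest error of any member transporter. Of all genes tested, 25.6% were lower in this pair of libraries than in both others and 22.8% were higher. Among the 9 members 2 were lower (*Slc39a1* and *Slc39a10*) and 3 higher (*Slc39a8*, *Slc39a6* and *Mt1*). The part of macrophage RNA and of proliferation in these levels was not tested.

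*Slc39a14* (chromosome 14, 70303467 to 70351452) encodes ZIP14, an importer of iron that is not bound to transferrin, and also of zinc and manganese. It was at 7.93 and 11.2 CPM in WT and at 9.72 and 11.1 CPM in those labelled TfR1-deficient. The groups overlapped, with the highest and the lowest value both in WT libraries. The fitted difference was 0.12 on the log2 scale (standard error 0.31, adjusted p = 0.987 in edgeR), and the sign depended on the pair, at -0.20 in the low-marker pair and 0.47 in the high-marker pair.

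*Slc39a8* (chromosome 3, 135816882 to 135888572) encodes ZIP8, the closest relative of ZIP14, which carries zinc, manganese and iron and lies in the plasma membrane and in lysosomes of T cells. It was at 3.76 and 2.81 CPM in WT and at 3.68 and 5.90 CPM in those labelled TfR1-deficient. TfR1-deficient replicate 2 alone stood above the rest, and the other replicate lay between the WT libraries. The difference came to 0.54 on the log2 scale (standard error 0.43, adjusted p = 0.950 in edgeR) and 0.16 without TfR1-deficient replicate 2. The log2 ratio was 0.36 within the low-marker pair and 0.62 within the high-marker pair. With 30 to 81 counts per library, the exact 95% Poisson interval of TfR1-deficient replicate 2 (4.69 to 7.34 CPM) reached below the upper bound of WT replicate 1 (5.02 CPM).

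*Slc39a6* (chromosome 18, 24579881 to 24603817) and *Slc39a10* (chromosome 1, 46807544 to 46925776) encode ZIP6 and ZIP10, which can form a joint zinc importer of the plasma membrane. *Slc39a6* was at 50.7 and 40.5 CPM in WT and at 39.2 and 45.3 CPM in those labelled TfR1-deficient, overlapping, and the log2 fold change was -0.11 (standard error 0.19). Within the low-marker pair the ratio was -0.046 on the log2 scale, and within the high-marker pair -0.16. *Slc39a10* was nearly level in 3 libraries, at 57.1 and 57.3 CPM in WT and 58.3 CPM in TfR1-deficient replicate 1, and at 35.1 CPM in TfR1-deficient replicate 2. Its difference of -0.29 on the log2 scale (standard error 0.27, adjusted p = 0.954 in edgeR) came from that library, and without it the value was 0.02. The ratio was 0.026 on the log2 scale within the low-marker pair and -0.70 within the high-marker pair. The library with this low value had the highest sums of both the macrophage and the erythroid markers of the 4, while WT replicate 1 had the next highest macrophage and the lowest erythroid sum. The part of other cells in this value was not tested. In bulk RNA, fewer cells that make a transcript and less of it per cell cannot be told apart.

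**Figure D2:**
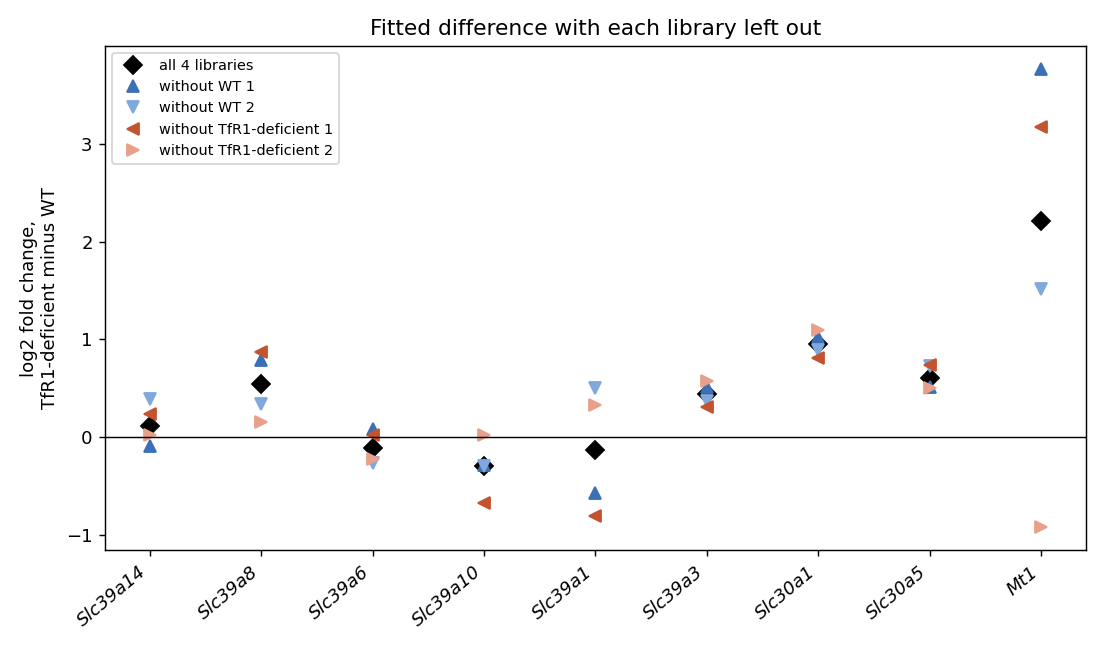
Fitted log2 fold change (TfR1-deficient minus WT, vertical axis) of the 9 tested genes with all 4 libraries (black diamonds) and with each library left out (coloured triangles). *Slc39a3*, *Slc30a1*, *Slc30a5* and *Slc39a8* stay above 0 throughout, whereas *Mt1* runs from -0.92 to 3.77.

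*Mt1* and *Mt2* lie next to each other (chromosome 8, 94178883 to 94180327 and 94172618 to 94173567) and encode small cysteine-rich proteins that bind zinc and copper. *Mt2* had 1 count in TfR1-deficient replicate 1 and 0 in the other 3 libraries. A count of 0 allows a level of up to 0.245 and 0.281 CPM in the WT libraries and 0.219 CPM in TfR1-deficient replicate 2 (3 counts per library, counting error only), so that a difference was not detectable at this depth. *Mt1* had 11 and 2 counts in WT and 5 and 68 counts in those labelled TfR1-deficient, or 0.899 and 0.187 CPM against 0.288 and 4.96 CPM. TfR1-deficient replicate 2 alone was high, and the other replicate lay between the WT libraries. The log2 fold change of 2.22 had a standard error of 1.43 (adjusted p = 0.934 in edgeR), and without TfR1-deficient replicate 2 it was -0.92. The log2 ratio was 0.30 within the low-marker pair and 2.18 within the high-marker pair.

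The libraries ranked for *Mt1* in nearly the same order as for macrophage markers. *Csf1r*, which encodes the growth factor receptor of macrophages, was at 124 and 1.97 CPM in WT and 4.95 and 371 CPM in those labelled TfR1-deficient. *Slc40a1*, which encodes ferroportin, the iron exporter of splenic macrophages, was at 207 and 10.3 CPM and at 11.7 and 547 CPM, and *Slc11a1*, the metal carrier of phagosomes, at 9.24 and 0.0936 CPM and at 0.921 and 31.0 CPM. The erythroid sum was also highest in TfR1-deficient replicate 2, at 276 CPM, and lowest in WT replicate 1, at 16.8 CPM. In the libraries with low macrophage markers *Mt1* had 2 counts in WT and 5 in TfR1-deficient. Whether the *Mt1* reads come from Treg cells or from other cells was not tested.

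**Figure D3:**
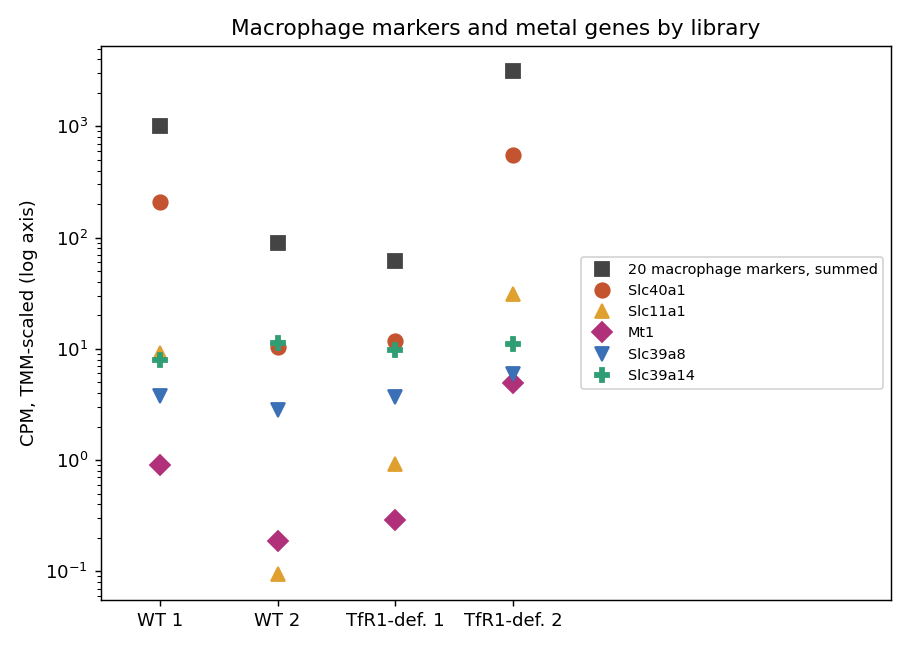
CPM on a log axis in each library for the summed 20 macrophage markers (squares), *Slc40a1*, *Slc11a1*, *Mt1*, *Slc39a8* and *Slc39a14*. The macrophage sum spans from 61.9 to 3135 CPM and *Mt1* from 0.187 to 4.96 CPM, both highest in TfR1-deficient replicate 2, while *Slc39a14* stays between 7.93 and 11.2 CPM.

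The other genes of both families and of the metallothioneins showed how far the members stand for them. Of the 14 Zip genes 12 were tested, of the 10 ZnT genes 7, and of the 4 metallothioneins 1. *Slc39a12*, *Slc30a8*, *Slc30a10*, *Mt3* and *Mt4* had no count in any library, and *Slc39a5* and *Slc30a2* were too low to test, with at most 8 counts. At the unadjusted p-value edgeR called 4.08% of all genes tested, and at the adjusted one 0%. None of the 20 tested here was called in either direction at either p-value. Their median log2 fold change was 0.12, with 12 above and 8 below 0 (51.1% of all genes lay above). In 5 both libraries labelled TfR1-deficient lay above both WT libraries, which were the 3 members named above, *Slc39a2* and *Slc39a7*, and in 0 below, where 16.0% of all genes tested lay above and 18.9% below.

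Summed over the family, Zip genes were at 380 and 365 CPM in WT and at 386 and 344 CPM in those labelled TfR1-deficient. ZnT genes were at 155 and 141 CPM and at 153 and 169 CPM. Both sums overlapped between the groups, so the total of importer or of exporter RNA was not set apart by genotype.

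Among the Zip genes that are no members, *Slc39a2*, which encodes a zinc importer related to ZIP1 and ZIP3, had the largest value, at 0.736 and 0.374 CPM in WT and 1.78 and 1.53 CPM in those labelled TfR1-deficient (log2 fold change 1.55, standard error 0.65, adjusted p = 0.911 in edgeR). It had at most 31 counts in any library, and it passed the count filter only through the libraries labelled TfR1-deficient. *Slc39a7*, for ZIP7, which releases zinc from the endoplasmic reticulum, was at 7.93 and 8.89 CPM and at 9.67 and 9.47 CPM (0.19, standard error 0.28). *Slc39a4* (-0.24), *Slc39a9* (-0.13), *Slc39a11* (-0.06) and *Slc39a13* (0.11) had log2 fold changes within 1 standard error of 0. *Slc39a11* was at 74.9 to 82.1 CPM and *Slc39a9* at 61.2 to 76.0 CPM over the 4 libraries.

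Among the ZnT genes that are no members, *Slc30a7*, whose product fills the secretory pathway with zinc, was at 78.3 to 99.1 CPM over the 4 libraries, with a difference of 0.04 on the log2 scale (standard error 0.18). *Slc30a9* had 0.28 (standard error 0.26) and *Slc30a4* 0.55 (standard error 0.51), the latter from TfR1-deficient replicate 1 alone at 4.89 CPM against at most 2.81 CPM. *Slc30a3* had 14 counts each in WT replicate 1 and TfR1-deficient replicate 2 and 0 in the other 2 libraries. It thus followed the split by macrophage markers.

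**Figure D4:**
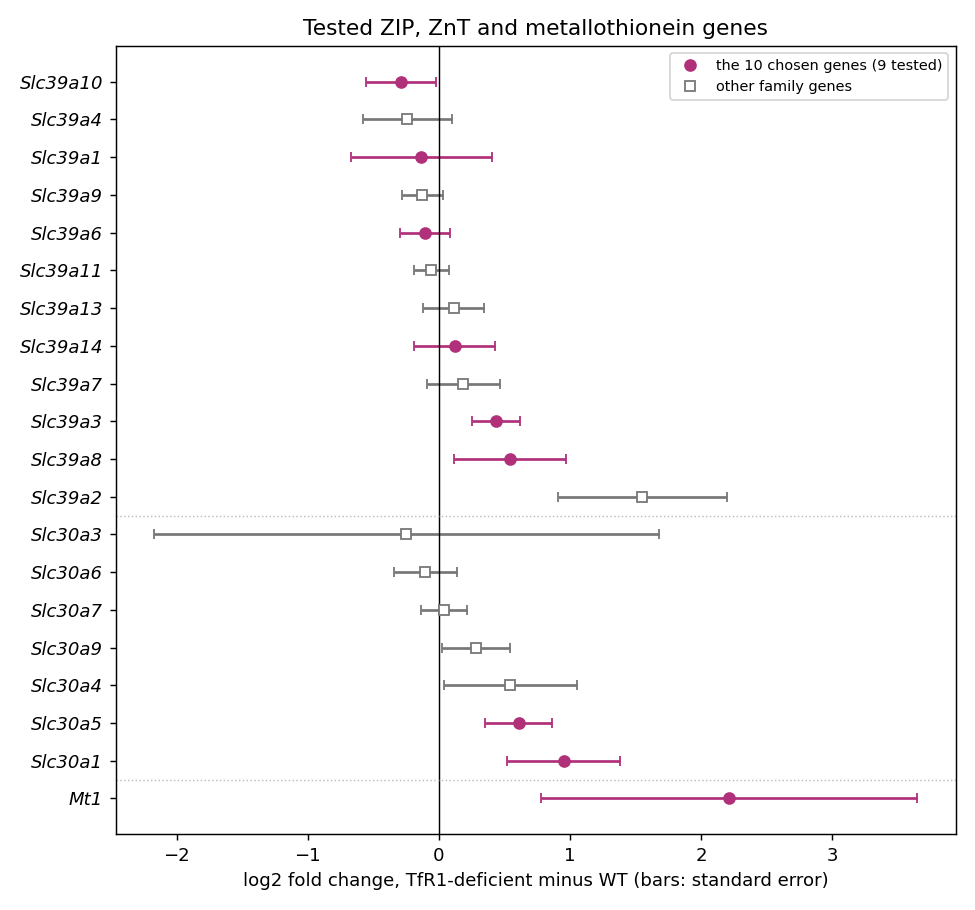
Log2 fold change (TfR1-deficient minus WT, horizontal axis) with its standard error for the 20 tested genes, with Zip genes above, ZnT genes in the middle and *Mt1* last, the members as filled circles and the others as open squares. *Slc39a2* and *Mt1* lie farthest to the right, and *Slc30a1* and *Slc30a5* head the ZnT genes.

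Of the zinc sensor and zinc partners, 5 of 5 listed genes were tested. At the unadjusted p-value in edgeR 0 were higher and 1 was lower, where 1.60% of all genes were higher and 2.48% lower. At the adjusted one it was 0, as for 0% of all genes. *Mtf1*, the zinc sensor itself (chromosome 4, 124802549 to 124849800), was at 45.9 and 53.7 CPM in WT and at 34.5 and 32.9 CPM in those labelled TfR1-deficient. Both of these were below both WT libraries, and the difference came to -0.56 on the log2 scale (standard error 0.17, adjusted p = 0.911 in edgeR). With any 1 library left out it stayed between -0.66 and -0.45, and the log2 ratio was -0.64 within the low-marker pair and -0.48 within the high-marker pair. *Tmc8*, whose product binds ZnT1 in lymphocytes, was also lower in both libraries, at 46.3 and 51.3 CPM against 36.0 and 39.6 CPM (-0.37, standard error 0.16, adjusted p = 0.911 in edgeR), and its partner *Tmc6* was at -0.05 (standard error 0.16). *Tmem163*, for another zinc exporter, had 5 to 13 counts per library and a difference of -0.83 on the log2 scale (standard error 0.72), and it passed the filter only through WT libraries. *Gclc*, a glutathione synthesis gene that MTF-1 can induce, was at 8.66 and 14.2 CPM against 16.8 and 16.0 CPM (0.52, standard error 0.32).

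Of 20 genes for iron uptake without transferrin, iron reduction, and iron and haem export, 11 were tested. With the minimum change, edgeR called 4.08% of all genes at the unadjusted p-value and 0% at the adjusted one. Of these 11 genes it called 0 in either direction at either p-value. Their median log2 fold change was 0.39, with 10 above 0 and 1 below, where 51.1% of all genes lay above. In 6 of the 11 both libraries with high macrophage markers were higher than both others, as in 22.8% of all genes. The largest values were those of *Slc11a1* (1.76, standard error 1.93) and *Slc40a1* (1.36, standard error 1.86), and the smallest were those of *Slc11a2* and *Flvcr1* (0.04, standard error 0.29). *Slc11a2* (chromosome 15, 100387898 to 100424209) encodes DMT1, which moves iron out of endosomes after transferrin uptake and into cells without it. It was at 73.6 and 69.1 CPM in WT and at 54.1 and 55.5 CPM in those labelled TfR1-deficient, which lay below both WT libraries. The difference came to -0.38 on the log2 scale (standard error 0.14, adjusted p = 0.911 in edgeR), below the minimum change, and the value ran from -0.43 to -0.31 with any 1 library left out. The log2 ratio was -0.35 within the low-marker pair and -0.40 within the high-marker pair. Among the 3 best known carriers of iron without transferrin, *Slc11a2* had the highest mean level, at 9.93 CPM per kilobase of exon, against 0.947 for *Slc39a14* and 0.527 for *Slc39a8*.

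Of 11 copper and manganese genes 9 were tested, with a median log2 fold change of 0.11. At the unadjusted p-value in edgeR 0 were higher and 1 was lower, where 1.60% of all genes were higher and 2.48% lower. At the adjusted one it was 0, as for 0% of all genes. *Commd1*, whose product helps sort the copper pumps and also limits NF-kB, was at 20.7 and 19.1 CPM in WT and at 7.19 and 10.3 CPM in those labelled TfR1-deficient (-1.19, standard error 0.29, adjusted p = 0.911 in edgeR, and adjusted p = 0.207 in DESeq2). The log2 ratio was -1.38 within the low-marker pair and -0.99 within the high-marker pair. The next lowest was *Sco1* (0.07, standard error 0.25). *Cox17*, a copper chaperone of mitochondria, had the largest value (0.67, standard error 0.47), from TfR1-deficient replicate 1 alone at 18.2 CPM, and the copper importer *Slc31a1* was at 0.26 (standard error 0.20).

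With 2 libraries against 2, the smallest value an exact two-sided permutation test on 1 gene can give is p = 0.333, which was reached by *Slc39a3*, *Slc30a1* and *Slc30a5*. The common biological coefficient of variation over the table was 0.323, and a p-value that misses the threshold does not show that a gene was equal in both genotypes.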

How the data were processed

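RNA was measured in 4 libraries of sorted Treg cells, prepared with a NEBNext low-input kit. The deposited values are raw read counts for each Ensembl gene, which the authors did not normalize or pool. The submitters' processing notes name Trim Galore 0.6.7, STAR 2.7.9a, featureCounts and mm10, whereas the paper's methods name mm9. Of the 47729 identifiers 32799 are in GENCODE vM1, an mm9 annotation, so counting used another release, and gene positions and promoters are those of RefSeq on GRCm38.p6 (mm10). Strand, annotation release and the handling of reads with several hits were not given in the sources used here, so that reads of overlapping genes on opposite strands cannot be told apart. Symbols and exon lengths came from GENCODE vM1.

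In R 4.3.3, edgeR 4.0.16 was used for TMM scaling and a quasi-likelihood test of genotype alone on the 12536 genes kept by filterByExpr, with Benjamini-Hochberg adjustment over all of them. Calls needed p under 0.05 and a log2 fold change of 0.5 or more in size. Standard errors are the fold change over the square root of edgeR's F. Poisson intervals (95%) and the limit for a count of 0 (3 counts) cover counting error only. The fit was tested on simulated counts. DESeq2 1.42.0, other scalings, filters and minimum changes, a replicate block and the omission of each library were alternatives. Libraries sharing a replicate number deviated from their groups in opposite ways (correlation -0.61 across genes), so the numbers were not taken as pairs. Replicates differed by far more than sampling noise (chi-square per degree of freedom 20.7 and 32.1).

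The members, lists and naming rule (members, other family genes, and of each further list the genes called at the unadjusted p-value with the 2 largest and 2 smallest changes) were chosen with earlier results of these data known. *Tmc8*, *Slc30a6* as partner of *Slc30a5*, and 1700034H15Rik were singled out after their values were seen.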

Additional observations from a re-analysis of the deposited data

How the results depend on the processing

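At an adjusted p-value under 0.05, 0 members were called in any setting by edgeR or DESeq2. Over all genes, the edgeR test above also called 0. With every gene of at least 1 count kept, edgeR called 167 higher and 95 lower at the adjusted p-value. At the unadjusted p-value, where the count of members was 0, edgeR called 1 (*Mt1*) with every gene of at least 1 count kept. Over all genes that setting called 650 higher and 445 lower, against 200 and 311 with the filter used above. With at least 10 counts required in every library it called 1 (*Slc30a1*), and 207 higher and 288 lower over all genes. Without TfR1-deficient replicate 1 the log2 fold change was 3.17 for *Mt1* and -0.67 for *Slc39a10*. Replicate numbers give no pairing here, and the replicate block called 0 members. Over all genes the block called 70 higher and 141 lower at the unadjusted p-value, and 0 at the adjusted one. The crossed pairing, added after seeing the data, called 2 members, both higher. Over all genes it called 596 higher and 519 lower at the unadjusted p-value, and 150 and 210 at the adjusted one. Of the other genes of metal handling 2 were called at the unadjusted p-value (*Mtf1* and *Commd1*), 4 with every gene of at least 1 count kept, 1 with the replicate block (*Commd1*), 5 with the crossed pairing, and from 1 to 3 with each library left out. The causes of these differences were not tested.

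When single libraries were omitted, the log2 fold change turned its sign in 5 members, running from -0.092 to 0.39 for *Slc39a14*, -0.27 to 0.080 for *Slc39a6*, -0.67 to 0.025 for *Slc39a10*, -0.80 to 0.50 for *Slc39a1* and -0.92 to 3.77 for *Mt1*. It stayed above 0 for *Slc39a8* (0.16 to 0.87), *Slc39a3* (0.31 to 0.58), *Slc30a1* (0.81 to 1.10) and *Slc30a5* (0.50 to 0.74). In these fits the lone library of a group is assumed to vary like the others. No member changed its sign under DESeq2, another scaling, another filter, the replicate block or a prior count of 2.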
